A study of Mus musculus with 12 samples.

Results

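The 9 genes described here encode enzymes that break down the branched-chain amino acids leucine, isoleucine and valine: Bcat2, Bckdha, Bckdhb, Ivd, Mccc1, Acadsb, Hibch, Pcca and Pccb. They were chosen by name and matched to the gene column of the deposited table, where all 9 of 9 were found among 16670 genes. Branched-chain amino acids first lose their amino group to a transaminase, and the resulting keto acids are then committed to breakdown by the branched-chain keto acid dehydrogenase complex of the mitochondrion. From there leucine yields acetyl-CoA and acetoacetate, valine yields propionyl-CoA, and isoleucine yields acetyl-CoA and propionyl-CoA. In adipocytes these carbons can feed fatty acid synthesis, and the pathway is known to be induced when preadipocytes differentiate in culture.

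RNA was sequenced from 12 libraries of the inguinal fat pad, a subcutaneous white depot, taken from female C57BL/6 mice. The groups were mature adipocytes labelled Kdm5c+/-, mature adipocytes labelled Kdm5c+/+ (WT), the stromal vascular fraction labelled Kdm5c+/- and the stromal vascular fraction labelled Kdm5c+/+ (WT), with 3 libraries each. Every library came from tissue pooled from 2 mice, which collagenase and centrifugation parted into floating adipocytes and a pellet of stromal and vascular cells, so a replicate is a pool and not an animal. The sources used here give neither the ages of the mice nor the kind of Kdm5c allele. Values are CPM, reads of a gene per 1000000 reads of its library over the genes listed.

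Kdm5c, an X-linked gene encoding a histone H3K4 demethylase, had 158, 190.3 and 158 CPM in the Kdm5c+/- adipocyte libraries and 179, 174 and 180.0 CPM in the wild-type ones. In the stromal vascular fraction it had 194, 190.4 and 175 CPM under the Kdm5c+/- label, against 188, 185 and 180.1 CPM in wild type. Its log2 difference was -0.077 ± 0.10 in adipocytes and 0.014 ± 0.075 in the stromal vascular fraction (adjusted p = 0.717 and 0.978, limma). The labels overlapped in both fractions, so the level of the targeted gene does not bear them out. Since the kind of allele is not given, this level cannot speak against the labels either. Kdm5c+/- below always means the libraries labelled so. The 10 adipocyte markers checked were all higher in the adipocyte libraries, among them Adipoq, which encodes adiponectin, at 3993 to 4602 CPM in adipocytes and 45.4 to 169 CPM in the stromal vascular fraction. Markers of fibroblast progenitors summed to 1252 to 2598 CPM in adipocytes and to 18316 to 35592 CPM in the stromal vascular fraction. The libraries held 21836878 to 29434125 reads, and the lowest value of any of the 9 enzymes rested on 242 reads.

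Of the enzymes, Bckdha and Bckdhb were picked because their proteins pair in one enzyme while their levels per kilobase differed. Hibch was picked because it differed most between the fractions. Promoter sequences are shown for these 3. Each is a RefSeq window of build GRCm38.p6 from 250 bases before the gene's start to 50 after it, read 5′ to 3′ on the gene's strand, with matches to GGGCGG (the GC box) and CCAAT (the CCAAT box), on either strand, in capitals. The windows are chr7:25658712-25659011 on the minus strand for Bckdha, chr9:83924887-83925186 on the plus strand for Bckdhb and chr1:52844788-52845087 on the plus strand for Hibch.
Bckdha: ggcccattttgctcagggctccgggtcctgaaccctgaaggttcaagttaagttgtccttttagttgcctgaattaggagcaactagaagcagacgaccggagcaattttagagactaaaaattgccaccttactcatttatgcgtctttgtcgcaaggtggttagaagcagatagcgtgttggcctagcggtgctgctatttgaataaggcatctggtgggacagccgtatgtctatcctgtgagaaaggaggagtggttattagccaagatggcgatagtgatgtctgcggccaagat
Bckdhb: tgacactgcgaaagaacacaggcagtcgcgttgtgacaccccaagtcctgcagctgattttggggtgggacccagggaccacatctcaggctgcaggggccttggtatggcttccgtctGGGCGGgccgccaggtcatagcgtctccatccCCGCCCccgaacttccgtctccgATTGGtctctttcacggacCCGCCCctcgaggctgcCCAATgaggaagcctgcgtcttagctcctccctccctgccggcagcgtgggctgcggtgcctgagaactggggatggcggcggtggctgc
Hibch: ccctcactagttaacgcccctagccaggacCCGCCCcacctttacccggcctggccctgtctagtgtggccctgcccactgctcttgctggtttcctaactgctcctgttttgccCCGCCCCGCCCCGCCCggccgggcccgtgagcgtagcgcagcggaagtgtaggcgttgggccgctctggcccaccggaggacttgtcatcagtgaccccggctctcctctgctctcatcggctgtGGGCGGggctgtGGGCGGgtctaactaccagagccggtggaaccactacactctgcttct

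The Bckdha window held neither motif. That of Bckdhb held 3 GC boxes, beginning 131, 99 and 57 bases before the start, and 2 CCAAT boxes, at 76 and 40 bases before it. A second RefSeq window of Bckdhb, chr9:83948531-83948830, is not shown and held 0 GC boxes and 1 CCAAT box. Whether these motifs bear on the levels was not tested. Hibch had 6 GC boxes and no CCAAT box; 3 of its GC boxes lie in a row and overlap by 1 base each. Over the 12 windows that RefSeq gives for the 9 genes, GGGCGG was present in 5 (of 5 genes) and in 35.7% of all 32851 windows of that length, and CCAAT in 6 (of 4 genes) and in 37.4% of all windows. The letters TATAAA were in none of the 12 windows, against 13.6% of all, and neither were the E-box CACGTG (7.15% of all), TCAAGGTCA, a site bound by estrogen-related receptors (0.423%), the direct repeat of AGGTCA with 1 base between (0.0396%) or the NRF1 motif (0.971%). The median GC content was 54.2% over the 12 windows and 52.7% over all.

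All 9 enzymes were higher in mature adipocytes than in the stromal vascular fraction. Their log2 differences ran from 2.17 for Acadsb to 3.55 for Hibch, with a median of 2.84, while the median of all genes tested was -0.45. Together they took 2235 ± 129 CPM in adipocytes and 317 ± 26.3 CPM in the stromal vascular fraction (SD, n = 6 each), or 0.224% and 0.0317% of the reads. Differences were tested with limma on log2(CPM + 1) over 14193 genes with Benjamini-Hochberg adjustment, and a log2 difference is given with its standard error on that scale. All 9 of 9 enzymes were called higher at an adjusted p under 0.05, against a background of 28.7% of the genes tested; 0 of 9 were called lower, against 59.1%. For all 9, the 6 adipocyte libraries lay above the 6 stromal vascular ones, which was so for 23.2% of genes. A log2 difference of 2 or more was reached by 4.64% of genes. Fewer cells of a type and less RNA per cell cannot be told apart in these bulk samples.

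**Figure D1:**
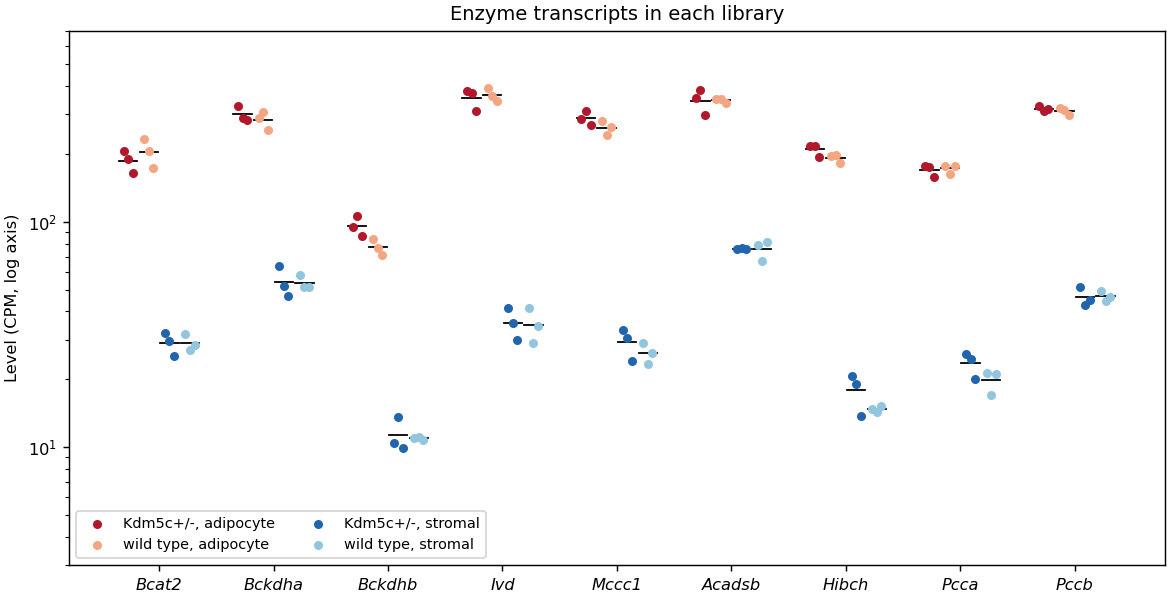
Level of each enzyme's transcript in CPM (log axis) in each of the 12 libraries: points are libraries, black lines are means of 3, and each gene shows from left to right the Kdm5c+/- and wild-type adipocytes, then the Kdm5c+/- and wild-type stromal vascular fraction. For all 9 genes the adipocyte points lie above the stromal vascular ones, while the genotype labels overlap within a fraction except for Bckdhb in adipocytes.

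Bcat2 (chr7:45570153-45589711 in GRCm38, plus strand) encodes the mitochondrial branched-chain aminotransferase, which takes the amino group in the first, reversible step. It had 206, 189 and 164 CPM in the Kdm5c+/- adipocyte libraries, against 232, 207 and 172 CPM in the wild-type ones. In the stromal vascular fraction it had 32.1, 29.4 and 25.3 CPM under the Kdm5c+/- label and 31.6, 27.0 and 28.5 CPM in wild type. The labels overlapped in each fraction, and every adipocyte value stood above every stromal one. The difference between fractions was 2.705 ± 0.090 (adjusted p = 6.12e-11, limma). Bcat1, the cytosolic aminotransferase, differed in this: it had 1.61 to 7.81 CPM in the 6 adipocyte libraries and 2.42 to 8.43 CPM in the 6 stromal ones. Its difference of -0.21 ± 0.27 was not called (adjusted p = 0.475, limma). That value averages opposite directions under the labels. Bcat1 means were 5.51 CPM in wild-type adipocytes and 3.35 CPM in the wild-type stromal vascular fraction. Under the Kdm5c+/- label they were 4.05 CPM in adipocytes and 7.87 CPM in the stromal vascular fraction.

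Bckdha (chr7:25629946-25658981, minus strand) and Bckdhb (chr9:83925145-84124240, plus strand) encode the alpha and beta subunits of E1, the decarboxylase of the branched-chain keto acid dehydrogenase complex, and work together in one complex. Bckdha had 326, 289.6 and 282 CPM in the Kdm5c+/- adipocyte libraries, against 289, 306 and 256 CPM in the wild-type ones. The stromal Kdm5c+/- libraries had 63.6, 51.7 and 47.1 CPM and the stromal wild-type ones 57.9, 51.5 and 51.2 CPM. The labels overlapped in both fractions, and the difference between fractions was 2.42 ± 0.081 (adjusted p = 6.07e-11, limma). Bckdhb had 94.8, 106 and 86.3 CPM in the Kdm5c+/- adipocyte libraries, against 83.5, 76.2 and 70.9 CPM in the wild-type ones. Stromal vascular values were 10.5, 13.6 and 9.95 CPM under the Kdm5c+/- label, against 11.0, 11.1 and 10.7 CPM in wild type. In adipocytes the 3 Kdm5c+/- values all stood above the 3 wild-type ones, and in the stromal vascular fraction the labels overlapped. Between fractions Bckdhb differed by 2.84 ± 0.082 (adjusted p = 2.04e-11, limma). Exons of Bckdha overlap those of B3gnt8 on the opposite strand; the sources used here do not say whether reads were counted by strand. The other subunits of the complex also rose: Dbt, the E2 transacylase, by 2.33 ± 0.074 and Dld, the E3 subunit shared with other dehydrogenases, by 1.83 ± 0.063 (adjusted p = 4.20e-11 and 8.26e-11, limma).

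Per kilobase of the longest coding transcript, the Bckdhb level was 0.381 ± 0.0503 of the Bckdha level in adipocytes and 0.269 ± 0.0419 in the stromal vascular fraction (SD, n = 6 each). The ratio was higher in the adipocytes of the same pool in 6 of 6 pools. An exact two-sided sign-flip permutation test over the 6 pools gave p = 0.03125, the smallest it can give, and 0.188 after adjustment over the 12 tests of 4 ratios, so the difference did not pass the correction. In adipocytes the ratio was 0.374, 0.471 and 0.393 under the Kdm5c+/- label and 0.371, 0.320 and 0.356 in wild type; the groups did not overlap. The exact permutation test of 3 against 3 gave p = 0.1, the smallest it allows, and 0.24 after adjustment. These ratios, unlike CPM, do not depend on how the libraries are scaled.

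Ivd (chr2:118861954-118882909, plus strand) encodes isovaleryl-CoA dehydrogenase, the step of leucine breakdown that follows the dehydrogenase complex. It had 379, 374 and 309 CPM in the Kdm5c+/- adipocyte libraries, against 390.4, 362 and 342 CPM in the wild-type ones. In the stromal vascular fraction it had 41.3, 35.5 and 30.0 CPM under the Kdm5c+/- label and 41.2, 29.0 and 34.5 CPM in wild type. The labels overlapped in both fractions, and the stromal level was 9.81% of the adipocyte level. Ivd differed between fractions by 3.32 ± 0.10 (adjusted p = 3.05e-11, limma). Mccc1 (chr3:35959312-36000678, minus strand) encodes the biotin-carrying subunit of methylcrotonyl-CoA carboxylase, the next enzyme of that branch. It had 286, 309 and 267 CPM in the Kdm5c+/- adipocyte libraries, against 279, 242 and 262 CPM in the wild-type ones. The stromal Kdm5c+/- libraries had 33.0, 30.4 and 24.2 CPM and the stromal wild-type ones 29.1, 23.4 and 26.1 CPM. Its labels overlapped too, and the difference between fractions was 3.27 ± 0.083 (adjusted p = 8.56e-12, limma). Mccc2, which encodes the other subunit, differed by a like amount, 3.17 ± 0.071, and the Mccc1 to Mccc2 ratio per kilobase was 1.40 ± 0.0814 in adipocytes and 1.33 ± 0.109 in the stromal vascular fraction (SD, n = 6 each). The ratio was higher in adipocytes in 5 of 6 pools (exact sign-flip p = 0.0625, 0.188 after adjustment). Mccc1 exons overlap the antisense gene Mccc1os.

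Acadsb (chr7:131410601-131448944, plus strand) encodes short/branched-chain acyl-CoA dehydrogenase, which acts on the isoleucine branch where Ivd acts on leucine. It had 353, 383 and 296 CPM in the Kdm5c+/- adipocyte libraries, against 349.6, 349 and 338 CPM in the wild-type ones. Stromal vascular values were 75.4, 76.6 and 75.7 CPM under the Kdm5c+/- label, against 79.2, 66.9 and 81.4 CPM in wild type. Both fractions overlapped between labels, and the 3 stromal Kdm5c+/- libraries lay within 75.4 and 76.6 CPM. Acadsb kept the largest share of its adipocyte level in the stromal vascular fraction, 22.0%, and had the smallest difference of the 9, 2.17 ± 0.071 (adjusted p = 5.15e-11, limma). Hibch (chr1:52844929-52920986, plus strand) encodes 3-hydroxyisobutyryl-CoA hydrolase of the valine branch. It had 217, 217 and 193 CPM in the Kdm5c+/- adipocyte libraries, against 195, 197 and 182 CPM in the wild-type ones. In the stromal vascular fraction it had 20.7, 19.1 and 13.8 CPM under the Kdm5c+/- label and 14.8, 14.3 and 15.2 CPM in wild type. The lowest stromal Kdm5c+/- library lay below all 3 wild-type ones and the other two above them. At 3.55 ± 0.086 its difference between fractions was the largest of the 9 (adjusted p = 6.25e-12, limma), and its stromal level was 8.15% of the adipocyte level. Hibadh, the dehydrogenase that takes the product of Hibch onward, rose by 2.39 ± 0.060 (adjusted p = 7.34e-12, limma).

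Pcca (chr14:122534324-122891100, plus strand) and Pccb (chr9:100982032-101034898, minus strand) encode the biotin-carrying and the carboxyltransferase subunits of propionyl-CoA carboxylase, which receives the propionyl-CoA of both isoleucine and valine. Pcca had 176, 176 and 157 CPM in the Kdm5c+/- adipocyte libraries, against 177, 163 and 177 CPM in the wild-type ones. The stromal Kdm5c+/- libraries had 26.0, 24.6 and 20.1 CPM and the stromal wild-type ones 21.2, 17.0 and 21.04 CPM. The labels overlapped in both fractions, and the fractions differed by 2.94 ± 0.078 (adjusted p = 1.11e-11, limma). Pccb had 325, 308 and 315 CPM in the Kdm5c+/- adipocyte libraries, against 318, 312 and 297 CPM in the wild-type ones. Stromal vascular values were 51.2, 42.9 and 45.2 CPM under the Kdm5c+/- label, against 49.3, 44.5 and 46.5 CPM in wild type. Pccb was the steadiest of the 9 among adipocyte libraries, which all lay within 297 and 325 CPM. It differed between fractions by 2.72 ± 0.054 (adjusted p = 2.39e-12, limma). The Pcca to Pccb ratio per kilobase was 0.490 ± 0.0309 in adipocytes and 0.416 ± 0.0602 in the stromal vascular fraction (SD, n = 6 each), higher in adipocytes in 5 of 6 pools (exact sign-flip p = 0.0625, 0.188 after adjustment). Exons of Pcca overlap those of Ggact, and exons of Bcat2 those of 0610005C13Rik, on the opposite strand.

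Levels of different genes can be set side by side only per length. In adipocytes, CPM per kilobase of the longest coding transcript was highest for Bckdha at 153 ± 12.3, followed by Pccb at 135 ± 4.04, Mccc1 at 112 ± 9.23 and Hibch at 109 ± 7.63 (SD, n = 6). Ivd at 98.0 ± 8.15, Bcat2 at 93.8 ± 12.1, Pcca at 66.0 ± 3.34, Bckdhb at 58.4 ± 8.62 and Acadsb at 56.7 ± 4.62 came next. The ranges of neighbours in this order overlapped except between Pccb and Mccc1 and between Bcat2 and Pcca. Among stromal vascular libraries Bckdha at 28.3 ± 3.11 and Pccb at 20.1 ± 1.35 again led, each above the range of the next gene, and Bckdhb at 7.54 ± 0.863 was lowest. The order depends on the transcript: with the median coding length in place of the longest, Acadsb would stand at 139.8, Pcca at 334 and Pccb at 211 CPM per kilobase in adipocytes. Pcca would then lie above Pccb, so the size of a partner ratio depends on the transcript as well. The relative change of such a ratio between groups does not, since the lengths cancel.

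Most of the pathway around the 9 enzymes followed the same direction. Of 19 other genes listed for branched-chain amino acid breakdown, 17 were called higher in adipocytes and 0 lower, beside 28.7% and 59.1% of all genes tested. That list includes Mmaa and Mmab, which handle the cobalamin cofactor, and Hadha, Hadhb and Acaa2, which also act in fatty acid oxidation. Its median log2 difference was 1.83, beside -0.45 over all genes tested. Acat1, the thiolase that ends isoleucine breakdown, differed by 2.11 ± 0.047, and Auh, the methylglutaconyl-CoA hydratase of the leucine branch, by 2.25 ± 0.052 (adjusted p = 3.98e-12 and 4.74e-12, limma). With other scalings 18 of the 19 were called higher, or all 19 with quantile normalization; over all genes TMM called 6073 of 14193 higher. All 14 of 14 citric acid cycle enzymes, listed for comparison, were called higher, against the same 28.7%, by 1.22 to 2.67. Their median of 1.73 lay under the median of 2.84 of the 9 enzymes; this difference between lists was not tested. All 3 genes of biotin handling, on which the Mccc1 and Pcca proteins depend, were called higher: Slc5a6, a biotin transporter, by 1.23 ± 0.17, Btd, the biotinidase that frees biotin for reuse, by 0.69 ± 0.10, and Hlcs, the ligase that attaches it, by 0.69 ± 0.094 (adjusted p = 3.31e-05, 3.47e-05 and 1.93e-05, limma).

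The 9 regulators and carriers did not move together: 4 were called higher, 2 lower and 3 neither, beside 28.7% and 59.1% of all genes called higher and lower. Klf15, a transcription factor known to induce amino acid breakdown genes, rose by 3.23 ± 0.25, and Slc25a44, the mitochondrial carrier of branched-chain amino acids, by 1.87 ± 0.13 (adjusted p = 1.60e-07 and 6.97e-08, limma). Slc43a1, an amino acid transporter of the plasma membrane, rose by 2.13 ± 0.21 (adjusted p = 1.10e-06, limma). Slc7a5 and Slc43a2, which also carry these amino acids across the plasma membrane, fell, with -1.55 ± 0.20 and -0.83 ± 0.19 (adjusted p = 1.82e-05 and 0.00147, limma). Bckdk, the kinase that switches the dehydrogenase complex off, rose by 1.12 ± 0.064 (adjusted p = 6.30e-09, limma), while Ppm1k, the phosphatase that switches it on, was at 0.17 ± 0.12 and was not called (adjusted p = 0.187). The Bckdk to Ppm1k ratio per kilobase was 9.27 ± 1.92 in adipocytes and 4.70 ± 0.421 in the stromal vascular fraction (SD, n = 6 each), higher in adipocytes in 6 of 6 pools. Its exact sign-flip p was 0.03125, and 0.188 after adjustment. These calls depend on the scaling: with TMM, 7 of the 9 were called higher and 1, Slc7a5 at -1.14 ± 0.21, lower, beside 6073 and 6170 of all 14193 genes. Ppm1k was then called higher at 0.62 ± 0.12 (adjusted p = 3.81e-04), and Slc43a2 was not called at -0.37 ± 0.19 (adjusted p = 0.095, limma).

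**Figure D2:**
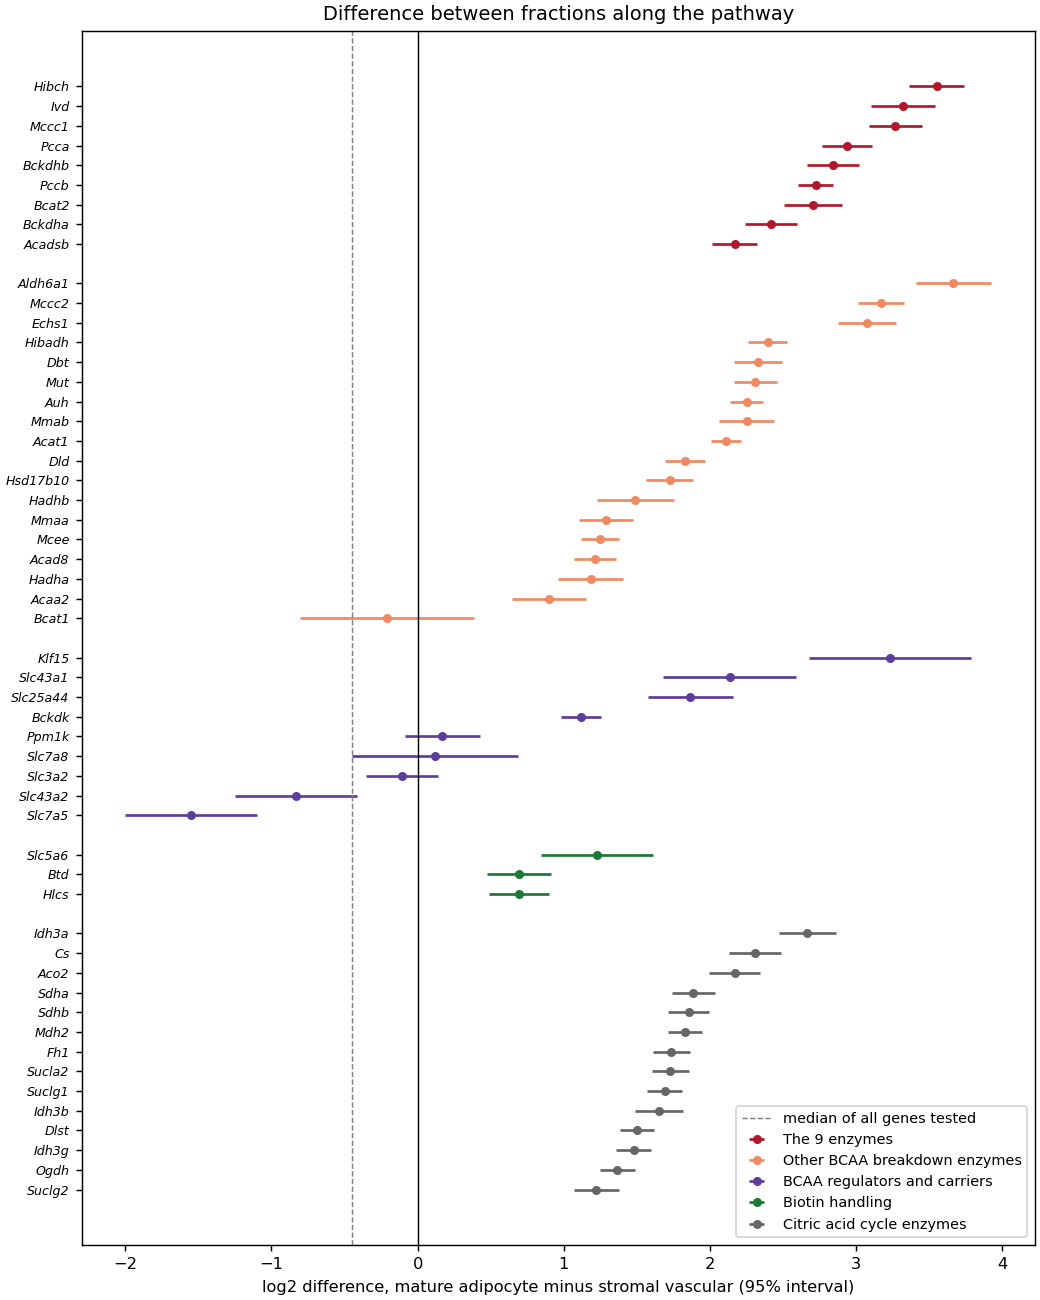
Log2 difference (points) with its 95% interval (lines), mature adipocyte minus stromal vascular fraction, on the log2(CPM + 1) scale for the 9 enzymes and the 4 lists around them, of which 1 other breakdown enzyme is not shown. The 9 enzymes lie between 2.17 and 3.55, the citric acid cycle enzymes between 1.22 and 2.67, and the regulators and carriers on both sides of 0; the dashed line is the median of all genes tested, -0.45.

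CPM shares a fixed total among all genes, and more genes were called lower in adipocytes (8394) than higher (4072). Other scalings raised the median difference of all genes by 0.36 to 0.55. The calls were then 5721 higher and 6550 lower with median-of-ratios scaling, 6073 and 6170 with TMM, 6678 and 5542 with quantile normalization, 6063 and 6145 with edgeR, and 5768 and 6530 with DESeq2. Under each of these all 9 enzymes were again called higher, with differences of at least 2.37.

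The stromal vascular level of the enzymes was 8.15% to 22.0% of the adipocyte level, with a median of 12.9%. Of the 10 adipocyte markers, Lep, Adipoq, Plin1, Retn, Cfd and Cidec stood at 2.05% to 2.86%, Slc2a4 at 7.51% and Lipe at 8.04%. Pparg, at 34.4%, and Fabp4, at 41.7%, are also expressed by other cells of the tissue. Within single pools the stromal Adipoq level was 1.06% to 3.73% of the adipocyte level, and the median enzyme was at 12.8% to 15.1%. The summed level of all 10 adipocyte markers, Pparg and Fabp4 included, was at 10.63% to 15.99% within single pools, a range that held that of the median enzyme. Most of the stromal sum was Fabp4: on average 5076 of 6432 CPM under the Kdm5c+/- label and 4322 of 5140 CPM in wild type. The lowest enzyme of each pool was at 7.12% to 9.56%, above Adipoq in every pool. Adipoq was highest in the stromal Kdm5c+/- replicates 1 and 2, at 165 and 169 CPM, against 55.8 CPM in replicate 3 and 105, 45.4 and 59.5 CPM in wild type. The stromal Kdm5c+/- replicate 1 had the highest value of 7 of the 9 enzymes, and replicate 2 the highest of 1 and the lowest of 1. What part residual adipocyte RNA had in the stromal levels was not tested.

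**Figure D3:**
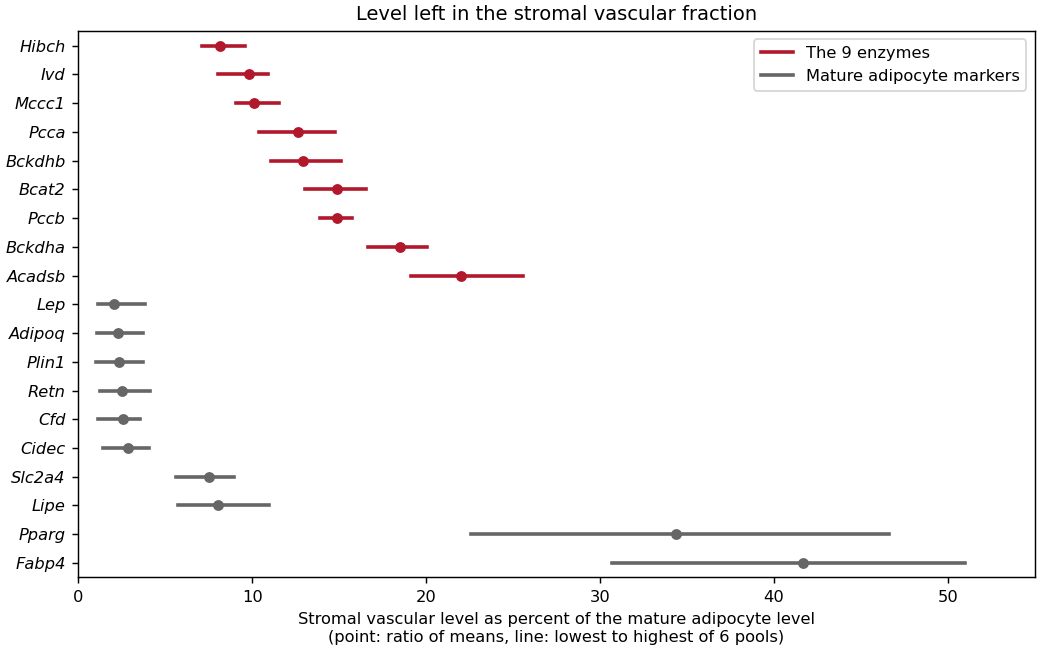
Stromal vascular level as a percent of the mature adipocyte level for the 9 enzymes (red) and 10 adipocyte markers (grey); points are ratios of the means of 6 libraries and lines run from the lowest to the highest of 6 pools. The enzymes lie between 8.15% and 22.0%, and 6 of the markers lie at 2.86% or less.

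The genotype labels were compared within each fraction. In mature adipocytes none of the 9 enzymes differed past the threshold, and limma called 0 of 11913 genes (0%), with 1737 genes (14.6%) at an unadjusted p under 0.05. That last count was 2667 without the Kdm5c+/- replicate 3, and 950 without the Kdm5c+/- replicate 1, 991 without the wild-type replicate 2 and 1119 without the wild-type replicate 3. edgeR on the recovered reads also called 0 genes, and DESeq2 called 250, none of them among the 9. The median log2 difference of the enzymes was 0.033, beside -0.035 over all genes tested. Bckdhb averaged 95.7 ± 9.93 CPM in Kdm5c+/- adipocytes and 76.9 ± 6.32 CPM in wild type (SD, n = 3 each), a log2 difference of 0.31 ± 0.10. Its 95% interval as a ratio on the CPM + 1 scale was 1.05 to 1.47, and the adjusted p was 0.297 (limma; 0.02 unadjusted). It was the 1 of 9 enzymes whose Kdm5c+/- libraries all stood above the wild-type ones, which held for 9.44% of genes, and 0 of 9 stood below, which held for 12.6%. Leaving out each library in turn gave 0.23 to 0.38.

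The other 8 enzymes overlapped between labels in adipocytes. Bcat2 was at -0.12 ± 0.14 (95% interval -0.45 to 0.21), Mccc1 at 0.14 ± 0.10 (-0.10 to 0.37) and Hibch at 0.13 ± 0.086 (-0.078 to 0.33). Bckdha was at 0.078 ± 0.11 (-0.17 to 0.33), Pccb at 0.033 ± 0.082 (-0.16 to 0.23) and Ivd at -0.047 ± 0.12 (-0.32 to 0.23). Pcca was at -0.026 ± 0.085 (-0.23 to 0.17) and Acadsb at -0.015 ± 0.11 (-0.29 to 0.26). The signs of Ivd, Pcca and Acadsb turned under some scalings and when the Kdm5c+/- replicate 3 was left out, and that of Ivd also without the wild-type replicate 1. Leaving out each library gave -0.24 to -0.023 for Bcat2, 0.084 to 0.19 for Mccc1, 0.090 to 0.18 for Hibch, 0.0066 to 0.13 for Bckdha and 0.0049 to 0.054 for Pccb. The intervals leave room for differences of either sign for these 8 genes, so the data do not show that the labels are alike.

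None of the surrounding lists had a call in adipocytes with limma. Of the 19 other breakdown enzymes, 6 had all Kdm5c+/- libraries above wild type and 1 had all below, beside 9.44% and 12.6% of all genes tested. Hsd17b10, a dehydrogenase of the isoleucine branch that lies on chromosome X as Kdm5c does, had 142, 134 and 116 CPM under the Kdm5c+/- label and 110.4, 98.7 and 105 CPM in wild type, a log2 difference of 0.31 ± 0.10 (adjusted p = 0.294, limma). Auh was at 0.19 ± 0.068 and Mut, the methylmalonyl-CoA mutase downstream of Pcca and Pccb, at -0.22 ± 0.081 (adjusted p = 0.303 and 0.31). The plasma membrane transporter Slc43a1 had 113, 149.7 and 67.2 CPM under the Kdm5c+/- label and 56.4, 55.9 and 35.5 CPM in wild type, 1.10 ± 0.31 (adjusted p = 0.286). Slc3a2, the partner chain of Slc7a5, was at -0.44 ± 0.15, Slc7a8, another amino acid transporter, at -1.004 ± 0.45, and Btd at 0.46 ± 0.16 (adjusted p = 0.3, 0.352 and 0.305). Idh3g, an X-linked subunit of isocitrate dehydrogenase, was at 0.27 ± 0.083 (adjusted p = 0.289).

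Summed levels of marker genes differed with the label in adipocytes. The 9 endothelial markers summed to 123 to 221 CPM in Kdm5c+/- adipocytes and 277 to 349 CPM in wild type, and all 9 had lower means under the Kdm5c+/- label. The 9 fibroblast progenitor markers summed to 1252 to 2500 CPM in Kdm5c+/- adipocytes and 2188 to 2598 CPM in wild type, which overlap, again with all 9 lower under the Kdm5c+/- label. The 10 adipocyte markers summed to 41584 to 50138 CPM in Kdm5c+/- adipocytes and 36957 to 37120 CPM in wild type, with 3 of 10 lower under the Kdm5c+/- label. Cfd averaged 15401 CPM in Kdm5c+/- adipocytes and 10523 CPM in wild type, and Fabp4 12738 CPM in Kdm5c+/- adipocytes and 9797 CPM in wild type, while Lep was lower in Kdm5c+/- adipocytes at 1376 CPM, against 2220.4 CPM in wild type. No marker of these lists had a mean of 0, and their part in the Bckdhb difference was not tested.

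In the stromal vascular fraction 0 of 9 enzymes were called between the labels, against a background of 0.00725% (1 of 13792 genes, limma), with 1043 genes (7.56%) at an unadjusted p under 0.05. edgeR called 1 gene and DESeq2 53, none of them among the 9, and limma called 0 genes when any one library was left out. The 1043 became 489 without the wild-type replicate 2 and 688 without the wild-type replicate 1, and was at most 1496, without the Kdm5c+/- replicate 3. All 9 overlapped between labels, where 3.74% of genes had all Kdm5c+/- libraries above and 9.74% all below. Pcca was at 0.24 ± 0.13 (95% interval -0.063 to 0.55) and Hibch at 0.24 ± 0.15 (-0.11 to 0.59), with adjusted p of 0.669 and 0.704 (limma). Mccc1 was at 0.14 ± 0.13 (-0.17 to 0.46). With each library left out in turn, Pcca ranged over 0.14 to 0.35, Hibch over 0.13 to 0.41 and Mccc1 over 0.053 to 0.27. The other 6 lay between -0.014 and 0.038, and those of Pccb and Bcat2 were positive under other scalings. Of the 19 other breakdown enzymes, 2 had all Kdm5c+/- libraries above wild type. Bcat1 had 8.40, 8.43 and 6.78 CPM under the Kdm5c+/- label and 2.42, 3.01 and 4.62 CPM in wild type, 1.05 ± 0.20 (unadjusted p = 9.99e-04, adjusted p = 0.617, limma). Acaa2, a mitochondrial thiolase, was at 0.28 ± 0.10 (adjusted p = 0.63). The 9 endothelial markers summed to 6413 to 8275 CPM under the Kdm5c+/- label and 8064 to 8713 CPM in wild type, and all 9 had lower means under the Kdm5c+/- label. Of the 8 pericyte and smooth muscle markers 7 had lower means there (sums of 3330.5 to 3647 CPM under the Kdm5c+/- label and 3562 to 4628 CPM in wild type). The 7 macrophage markers measured all had higher means under the Kdm5c+/- label (1612 to 2285 CPM and, in wild type, 1563 to 1654 CPM), as did 8 of the 10 adipocyte markers (4422 to 8015 CPM and, in wild type, 4759 to 5637 CPM). The fibroblast progenitor markers summed to 22695 to 35592 CPM under the Kdm5c+/- label and 18316 to 26292 CPM in wild type, with 4 of 9 lower. The part of these markers in the stromal enzyme values was not tested.

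**Figure D4:**
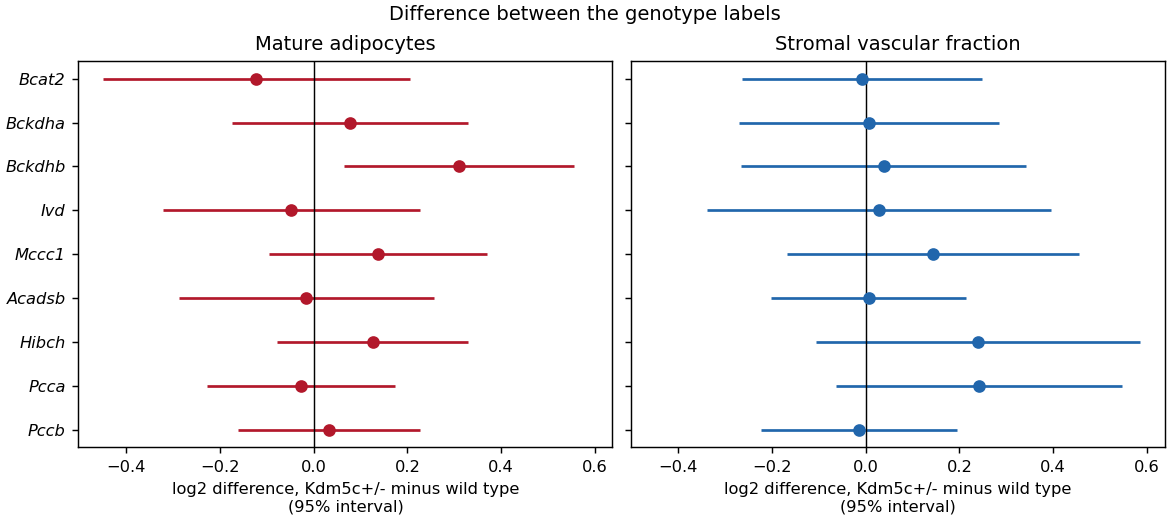
Log2 difference, Kdm5c+/- minus wild type (points), with its 95% interval (lines) on the log2(CPM + 1) scale for the 9 enzymes in mature adipocytes (left panel) and the stromal vascular fraction (right panel), 3 libraries per label. The interval of Bckdhb in adipocytes, 0.066 to 0.56, is the one that leaves out 0, and no difference passed after adjustment.

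Whether the label difference was unlike in the fractions was tested as the difference of the 2 differences. It passed for 0 of 9 enzymes and for 0 of 14193 genes (0%, limma; 1267 genes or 8.93% at an unadjusted p under 0.05, and 1945 without the Kdm5c+/- adipocyte replicate 3). edgeR also called 0 genes and DESeq2 67, none of them among the 9. The values ran from -0.27 ± 0.16 for Pcca to 0.27 ± 0.16 for Bckdhb, with adjusted p of at least 0.638 (limma). With a block for the pool, the smallest adjusted p of the 9 enzymes was 0.408 (limma). Leaving out each library gave -0.37 to -0.17 for Pcca and 0.19 to 0.40 for Bckdhb.

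Within the 4 groups, 35 of the 36 pairs of enzymes had a positive Pearson correlation of their deviations from the group means over 12 libraries, with a median of 0.60. These libraries share scaling and, by pool, animals, so the values are a description. Neither this share of pairs nor the counts per library below were computed for other genes. The highest was 0.93 between Mccc1 and Pcca, which both carry biotin, and the lowest -0.32 between Bckdhb and Pccb. The E1 partners Bckdha and Bckdhb correlated at 0.10, and the partners Pcca and Pccb at 0.45. Replicate 3 under the Kdm5c+/- label had 0 of 9 enzymes above the mean of its group in adipocytes and 0 of 9 in the stromal vascular fraction. The wild-type replicate 1 had 9 of 9 above it in both.

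**Figure D5:**
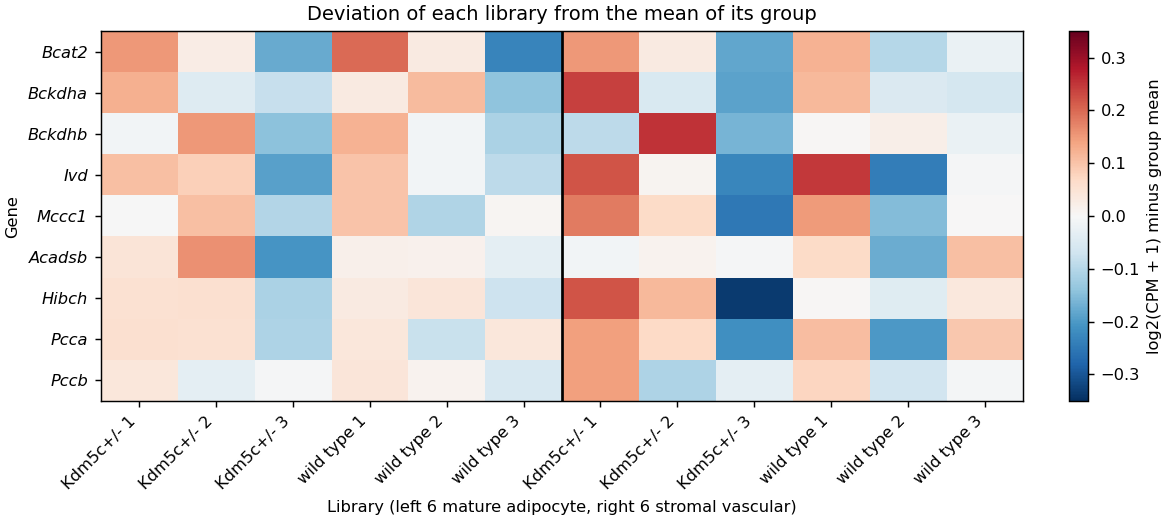
Deviation of log2(CPM + 1) from the mean of its group for the 9 enzymes (rows) in each library (columns; adipocytes left of the line, stromal vascular right, Kdm5c+/- before wild type). Replicate 3 under the Kdm5c+/- label is at or below its group mean for all 9 genes in both fractions, and wild-type replicate 1 above it.

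Over the 12 libraries, the genes most like the mean of the 9 enzymes among the 14184 others were Hibadh, Sdha, Ogdh, Mfn2 and Mccc2, with Pearson r of 0.999 each. Hibadh and Mccc2 belong to the same breakdown pathway, Sdha and Ogdh to the citric acid cycle, and Mfn2 encodes a mitochondrial fusion protein; this measure includes the difference between fractions. Over the deviations from the group means the most similar were Slc39a8, Pskh1, Eci3, Tst and Tmem70, with r of 0.94, 0.93, 0.93, 0.93 and 0.93. Slc39a8 was lower in adipocytes (5.15 CPM) than in the stromal vascular fraction (41.1 CPM). For single enzymes on that measure, the most similar other gene was Sdha for Bcat2 (0.96), Uba7 for Bckdha (0.95), Zfp422 for Bckdhb (0.95), Osbpl6 for Ivd (0.94), Tmem186 for Mccc1 (0.96), Cwf19l1 for Acadsb (0.93), Rplp2 for Hibch (0.98), Fam73b for Pcca (0.97) and Mrgprg for Pccb (0.95). These were the highest of 14184 genes over 12 libraries.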

How the data were processed

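The deposited CPM were made by the authors from strand-specific libraries (Universal plus mRNA-Seq Kit, NuGEN, per the labels' protocols); STAR 2.7.2a, edgeR 3.26.8 and GRCm38 are named per the submitters' processing notes, and they name no counting tool or annotation. Each listed gene exceeded 0.1 CPM in 3 libraries or more. In each library 100% of values were whole multiples of 1 step (tolerance 0.05 read), so whole reads were recovered, and 3 reads came to 0.102 to 0.137 CPM, a floor for counting error only. Of the gene symbols 95.2% matched GENCODE M21, which gave positions and lengths; 23 had become dates.

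Tests used limma 3.58.1 (trend and robust, two-sided, Benjamini-Hochberg, threshold 0.05) in R 4.3.3 on log2(CPM + 1), over genes that reached 1 CPM in 3 or more of the fitted libraries: the 6 libraries of a fraction for the labels, all 12 otherwise. The fit was tested on simulated reads that had no pool effect and shifts larger than those of the 9 enzymes between labels. It therefore does not show whether differences of that size would be found. Replicates are pools of 2 mice, so p-values measure the spread between pools. The alternatives were pseudocount, filter, scaling, edgeR 4.0.16 and DESeq2 1.42.0 on the recovered reads (6063 and 5768 genes called higher, 6145 and 6530 lower, between fractions), a replicate block, leaving out each library, and fitting one label or all libraries. Replicate numbers pair the fractions: deviations from group means of the 2 libraries of a label and number correlated at 0.169 to 0.278 over genes in all 6 pairs. The main fits held no block for this pairing and took the libraries as independent. The members and lists were chosen with earlier results of these data known. Named were all 9 members, Kdm5c, up to 4 genes per direction of each other list by p between fractions and up to 3 between labels, direct partners and regulators, and the most similar genes. The ratios of partners were added after values were seen. Python 3.11.15, pandas 2.3.3, numpy 2.4.6, scipy 1.17.1 and matplotlib 3.10.9 were also used.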

Additional observations from a re-analysis of the deposited data

How the results depend on the processing

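All 9 enzymes were called higher in adipocytes under every alternative run, the replicate block (9 of 9, with 4088 genes higher and 8415 lower) and single labels included. With that block the adjusted p of the 9 ran from 1.53e-09 to 1.83e-08, against 2.39e-12 to 6.12e-11 without it (limma). Genes called between the labels in adipocytes were 0 as reported, 250 with DESeq2, 1 with all 12 libraries in one fit and 0 to 3 when a library was left out (3 without the Kdm5c+/- adipocyte replicate 3). Between the labels in the stromal vascular fraction they were 1, against 53 with DESeq2, 4 with all 12 libraries in one fit and 0 without any one library. For the difference of differences they were 0, against 67 with DESeq2 and 0 to 7 when a library was left out (7 without the Kdm5c+/- adipocyte replicate 3). The regulators and carriers were 4 higher and 2 lower between fractions, but 7 and 1 with TMM, edgeR and DESeq2, and 1 lower in wild type alone. DESeq2 also called 1 regulator or carrier in adipocytes and 1 other breakdown enzyme in the stromal vascular fraction. The cause was not tested.

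In adipocytes Acadsb was 0.029, 0.031, 0.038 and 0.036 with median-of-ratios scaling, TMM, edgeR and DESeq2. Pcca was 0.018, 0.020, 0.018 and 0.015 with the same settings and 0.0058 with quantile normalization, and Ivd was 0.00070 with edgeR. Among stromal vascular libraries median-of-ratios scaling, TMM, quantile normalization, edgeR and DESeq2 gave Pccb 0.024, 0.021, 0.017, 0.023 and 0.029, and Bcat2 0.029, 0.026, 0.022, 0.029 and 0.034. Leaving out each library gave in adipocytes -0.10 to 0.048 for Ivd, -0.10 to 0.088 for Acadsb and -0.065 to 0.028 for Pcca. Stromal vascular ranges were -0.093 to 0.15 for Ivd, -0.080 to 0.060 for Acadsb, -0.11 to 0.10 for Bckdha, -0.085 to 0.041 for Pccb, -0.084 to 0.083 for Bcat2 and -0.089 to 0.12 for Bckdhb. For the difference of differences it gave -0.20 to 0.046 for Ivd, -0.10 to 0.082 for Acadsb, -0.022 to 0.19 for Bckdha, -0.0080 to 0.12 for Pccb and -0.13 to 0.084 for Mccc1. The log2 Bckdhb to Bckdha ratio in the stromal vascular fraction ran from -0.13 to 0.21 between labels, and the Bckdk to Ppm1k ratio in adipocytes from -0.16 to 0.28; leaving libraries out was added for ratios after seeing the data.

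Replicate numbers do not pair the labels: same-numbered Kdm5c+/- and wild-type libraries correlated at 0.36, -0.016 and 0.0012 in adipocytes and at 0.18, -0.29 and -0.21 in the stromal vascular fraction. With the number as a replicate block, 0 genes were called between labels in adipocytes and 0 in the stromal vascular fraction, 0 enzymes among them, and the pairing changed no call of an enzyme between fractions. With 3 pools per label, exact tests of single values cannot reach 0.05.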
